A study of Saccharomyces cerevisiae with 12 samples.

Results

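The genes described here are the 76 small nucleolar RNA (snoRNA) genes on the 16 nuclear chromosomes of Saccharomyces cerevisiae, among 6431 nuclear genes in the RefSeq gene table of assembly R64. Membership was taken from the gene type in that table and not from a measured value, but the members were chosen with earlier results of these data known. A gene was called open in a library when the summit of at least 1 ATAC-seq peak lay inside it or within 200 bp of either end. Of the 76 genes, 51 were independent, 17 lay in 5 clusters and 8 lay inside the span of a protein-coding host gene on the same strand. Genes were called clustered when the gap to the next snoRNA gene on the same strand was at most 500 bp with no other gene between them.

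snoRNAs guide the chemical modification and the processing of ribosomal RNA in the nucleolus. Box C/D snoRNAs direct ribose methylation and box H/ACA snoRNAs direct pseudouridylation, and a few of each kind are needed to cut the ribosomal RNA precursor rather than to modify it. Most yeast snoRNA genes have their own RNA polymerase II promoter, clustered genes are made as 1 precursor from a shared promoter, and intronic genes are released from the intron of a host transcript. By textbook assignment, 47 members were of the box C/D kind and 29 of the box H/ACA kind.

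ATAC-seq uses the Tn5 transposase to cut and tag accessible DNA. All libraries came from BY4741, a haploid laboratory strain of mating type a, that carried a synthetic human locus. The construct was synHPRT1R, the reversed sequence of the human HPRT1 locus, or synHPRT1, the unreversed version, which codes for a purine salvage enzyme. There were 3 libraries in each of 4 groups: synHPRT1R on a yeast artificial chromosome (YAC), synHPRT1R integrated on chromosome XI, synHPRT1 on a YAC and synHPRT1 integrated on chromosome XI. The medium was SC-Leu for strains with a YAC and YPD for those with an integrated copy, so a difference of format cannot be told apart from a difference of medium. All strains carried a construct, so no library of BY4741 without one was analysed here. Per the labels, cultures were diluted to an OD of 0.1, grown for 6 h at 30 °C and harvested near an OD of 0.6. Whether replicates came from separate isolates or cultures is not stated, so each p-value measures only the spread between these libraries.

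Each library had its own list of peaks, and the lists held 913 to 1303 peaks on the nuclear chromosomes. The YAC lists held 913 to 1041 nuclear peaks and the integrated lists 993 to 1303. Read depth is unknown from these lists, and a gene without a peak is not thereby shown to be closed. No pair of libraries shared more than 0.746% of the smaller list as identical peaks.

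Between 11 and 19 of the 76 snoRNA genes were open per library, with a median of 14.5. That was 19.6% ± 3.10 of snoRNA genes (SD, n = 12), against 11.2% ± 1.67 of all nuclear genes and 9.10% ± 1.52 of the 6002 protein-coding genes. The 275 tRNA genes, short genes transcribed by RNA polymerase III, were open more often, at 50.3% ± 6.6. The lowest library of the snoRNA genes had 14.5% open, above the highest of all nuclear genes, 14.0%. A long gene has more room for a summit than a short one, so the share was also taken within 200 bp of the annotated start alone. There it was 15.2% ± 2.34 of snoRNA genes, against 5.09% ± 0.940 of protein-coding genes and 47.8% of tRNA genes. That window leaves out the place where protein-coding summits were most frequent, 400 to 300 bp before the start. From 500 bp before the start to 100 bp after it, 15.6% of protein-coding genes held a summit. The snoRNA share in that wider window was not taken, so how far the gap at the start depends on the window was not tested. These shares describe the members beside the other genes and carry no test.

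The share open differed with arrangement on average. Independent snoRNA genes were open at 25.2% ± 4.86 per library, clustered genes at 12.3% ± 9.86, and none of the 8 intronic genes was open in any of the 12 libraries (SD, n = 12). In counts, 9 to 16 of the 51 independent genes and 0 to 5 of the 17 clustered genes were open per library. The ranges overlapped, and in 2 libraries the clustered share was above the independent one, at 23.5% against 17.6% in synHPRT1R YAC replicate 1 and 29.4% against 17.6% in synHPRT1 YAC replicate 3. Independent genes of the box C/D and H/ACA kinds were close, at 26.0% ± 5.65 of 24 genes and 24.4% ± 6.6 of 27 genes, a gap smaller than the spread between libraries.

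**Figure D1:**
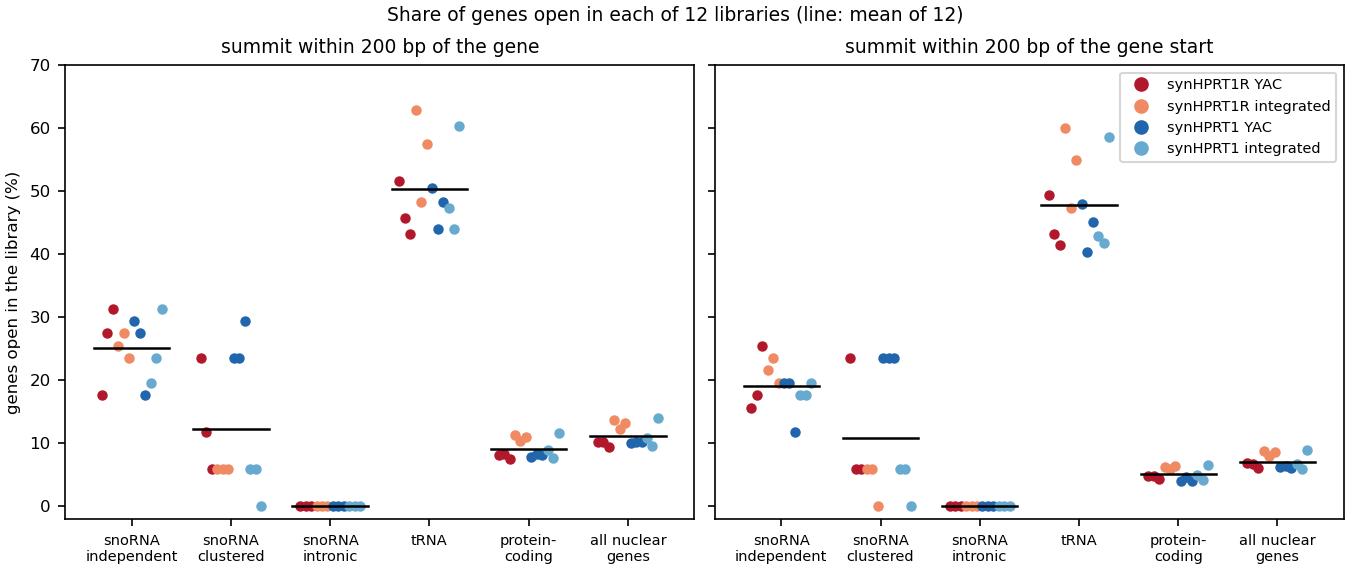
Percentage of genes open in each of 12 libraries, for snoRNA genes by arrangement, tRNA genes, protein-coding genes and all nuclear genes; the left panel counts summits within 200 bp of the whole gene and the right panel within 200 bp of its start. Points are libraries coloured by group and lines are means of 12; independent snoRNA genes (mean 25.2%, left) sit above all nuclear genes (11.2%) and below tRNA genes (50.3%), and intronic snoRNA genes are at 0 throughout.

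Openness varied widely from gene to gene. In all, 39 of the 76 snoRNA genes (51.3%) were open in at least 1 library, where 30.7% of all nuclear genes were. They comprised 30 of 51 independent genes, 9 of 17 clustered genes and 0 of 8 intronic genes. Only SNR52 was open in all 12 libraries, or 1.32% of members, where 2.05% of all nuclear genes were. At 6 or more libraries there were 15 members (19.7%), where 9.53% of all nuclear genes reached that number. Of the 39, 3 genes were open in 10 or more libraries, 12 in 6 to 9, 15 in 2 to 5 and 9 in a single library. Thus 38 of the 39 were open in some libraries and not in others, as were 1840 of the 1972 nuclear genes open at least once.

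**Figure D2:**
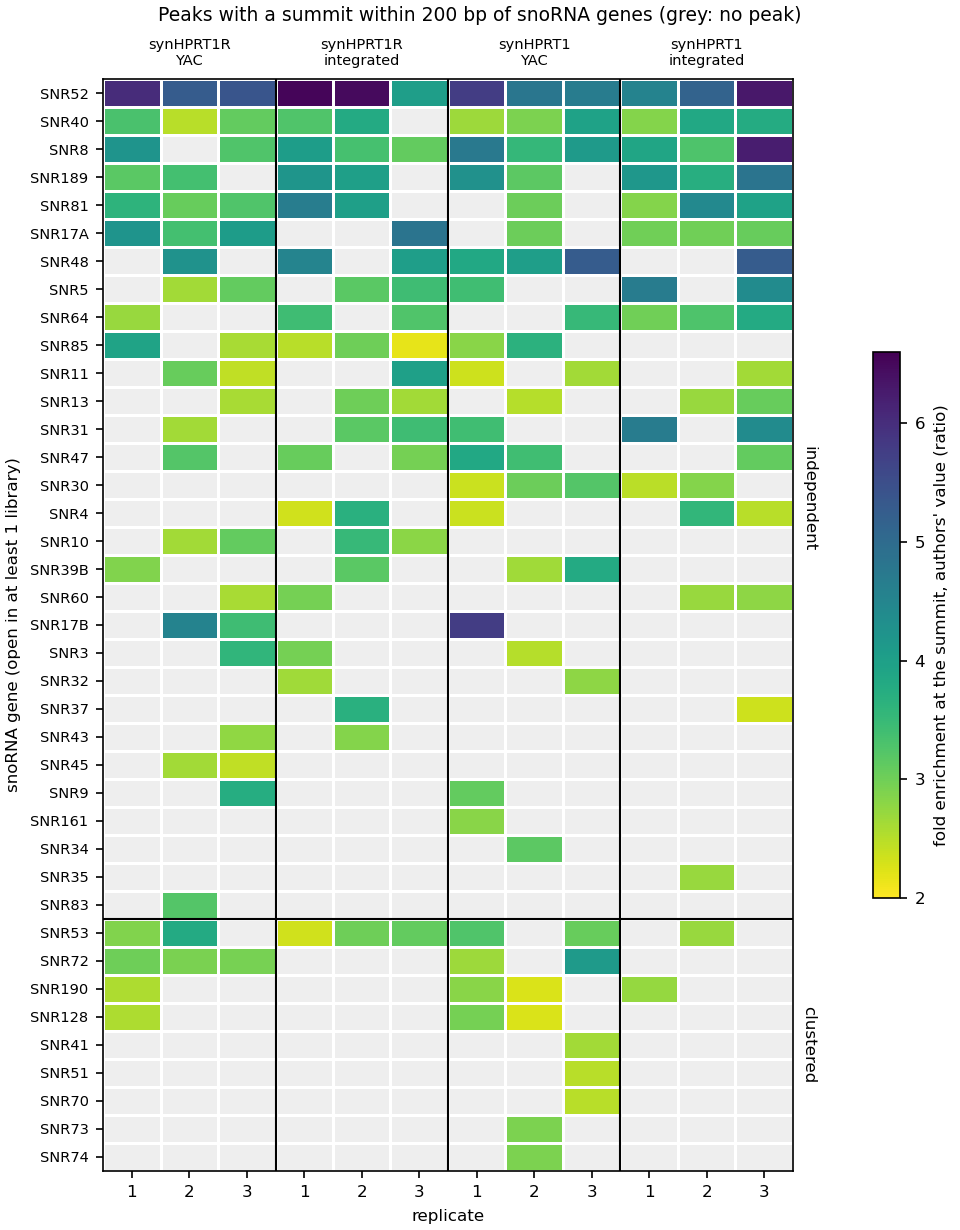
Fold enrichment at the summit, as the authors' peak caller gave it, for each of the 39 snoRNA genes open in at least 1 of 12 libraries; grey cells had no summit within 200 bp. Genes run down the page by arrangement and number of open libraries; SNR52 is filled in all 12 columns, SNR40 and SNR8 in 11, and SNR72 is filled in 5 YAC columns and in no integrated column.

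The gene open throughout was SNR52 (chromosome V, 431129 to 431220), a box C/D methylation guide and the snoRNA gene of this yeast known to be transcribed by RNA polymerase III. Its fold enrichments were 6.03, 5.28 and 5.38 in the synHPRT1R YAC libraries and 6.54, 6.48 and 4.05 in the synHPRT1R integrated libraries. They were 5.78, 4.79 and 4.69 in the synHPRT1 YAC libraries and 4.55, 5.15 and 6.30 in the synHPRT1 integrated libraries. The groups overlapped, and the lowest value came from synHPRT1R integrated replicate 3. Fold enrichments here and elsewhere are the authors' values per peak and were used only to describe and rank peaks within a list. The SNR52 peak stood at a mean percentile of 91.7 of its own library's nuclear peaks, with a range of 66.6 to 98.1. Its summit fell between 100 bp upstream and 4 bp downstream of the start, and in 6 libraries it fell at the same base, 61 bp upstream. The nearest other gene start, that of PMD1, lay 771 bp away.

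The next were SNR40 and SNR8, each open in 11 libraries. SNR40 (chromosome XIV, 89210 to 89306), a box C/D methylation guide, lacked a summit within 200 bp only in synHPRT1R integrated replicate 3. Its fold enrichment averaged 3.27 ± 0.518 (SD, n = 11) at a mean percentile of 36.9, so it was called in nearly every library without being a high peak. Its summits were spread between 198 bp upstream and 246 bp downstream of the start, with a median 50 bp upstream. SNR8 (chromosome XV, 832332 to 832521), a box H/ACA pseudouridylation guide, lacked one only in synHPRT1R YAC replicate 2. Its fold enrichment averaged 3.98 ± 0.900 (SD, n = 11) at a mean percentile of 61.1, and its median summit lay 89 bp upstream of the start. Leaving out the library that lacked the call made either gene the second to be open in every library.

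Between 6 and 9 libraries, the box H/ACA genes were SNR81 and SNR189 (9 each), SNR5 and SNR85 (7 each), and SNR11 and SNR31 (6 each). The box C/D genes were SNR17A and SNR53 (8 each), SNR48 and SNR64 (7 each), and SNR13 and SNR47 (6 each). SNR48, a methylation guide, had the highest peaks of this tier, with a fold enrichment of 4.46 ± 0.591 (SD, n = 7) and a mean percentile of 78.0. These 7 peaks had summits 58 to 194 bp past the 3′ end of SNR48. Its only upstream summit, in synHPRT1R YAC replicate 2, had a fold enrichment of 3.22. SNR5 and SNR31 are divergent H/ACA genes 220 bp apart on chromosome XV, and the same 6 peaks between them were counted for both. Some summits lay near a neighbour: 9 of 11 peaks at SNR189 lay nearer to the start of RPS14A, a ribosomal protein gene, and 6 of 8 at SNR53 lay nearer to a tRNA gene start. Apart from SNR17A and SNR53, these genes are named for their number of open libraries, after the values were seen.

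**Figure D3:**
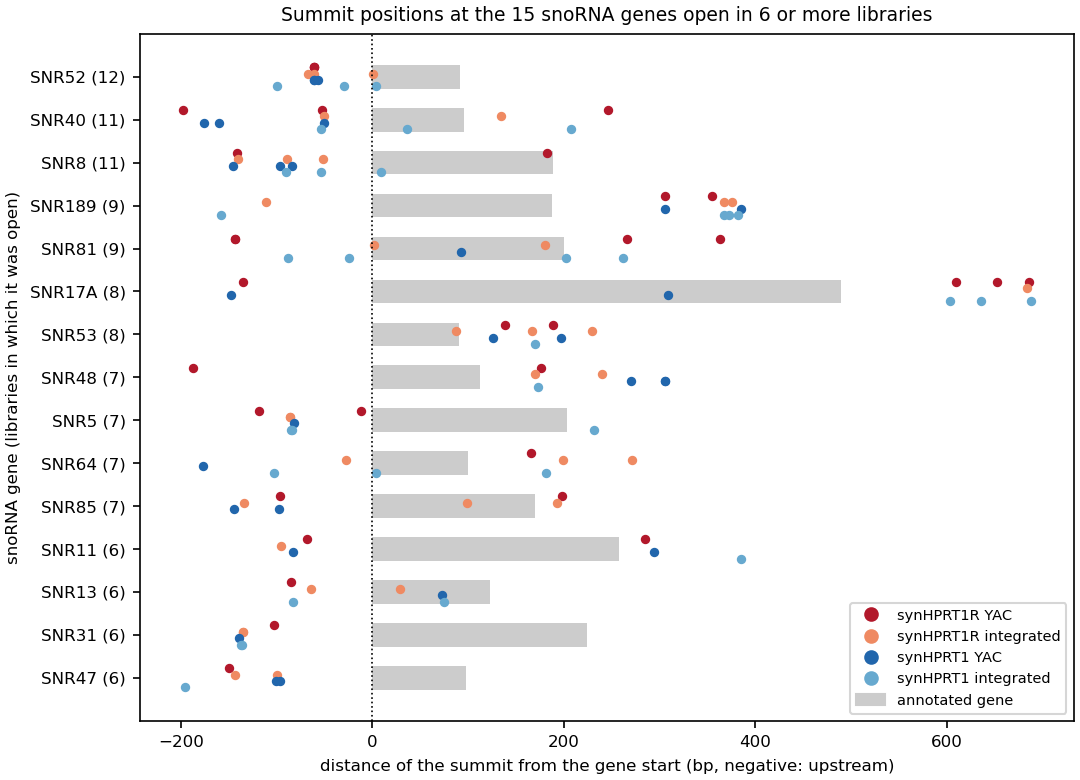
Distance in bp from the annotated gene start to every summit within 200 bp of the gene, for the 15 snoRNA genes open in 6 or more libraries. Points are coloured by group, a library can give a gene more than 1 point, and grey bars are the annotated genes. Summits of SNR52 gather between -100 and 4 bp and those of SNR31 between -139 and -103 bp. Most of those of SNR189, SNR17A, SNR48 and SNR53 lie past the 3′ end.

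Summits favoured the upstream side of independent genes. Of 154 gene and library pairs in which an independent gene was open, the highest peak had its summit upstream of the start in 84 (54.5%), inside the gene in 21 and downstream in 49. The median summit lay 52.5 bp upstream of the start. In bins of 100 bp, summits per 100 independent genes and library were most frequent in the 100 bp before the start, at 7.19, and numbered 2.45 in the 100 bp after it. Protein-coding genes had their maximum farther upstream, at 4.07 between 400 and 300 bp before the start. tRNA genes had theirs inside the gene, at 30.5 in the first 100 bp, where their internal promoter lies. Clustered genes differed from the independent ones: of their 25 gene and library pairs, 4 were upstream, 6 inside and 15 downstream.

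**Figure D4:**
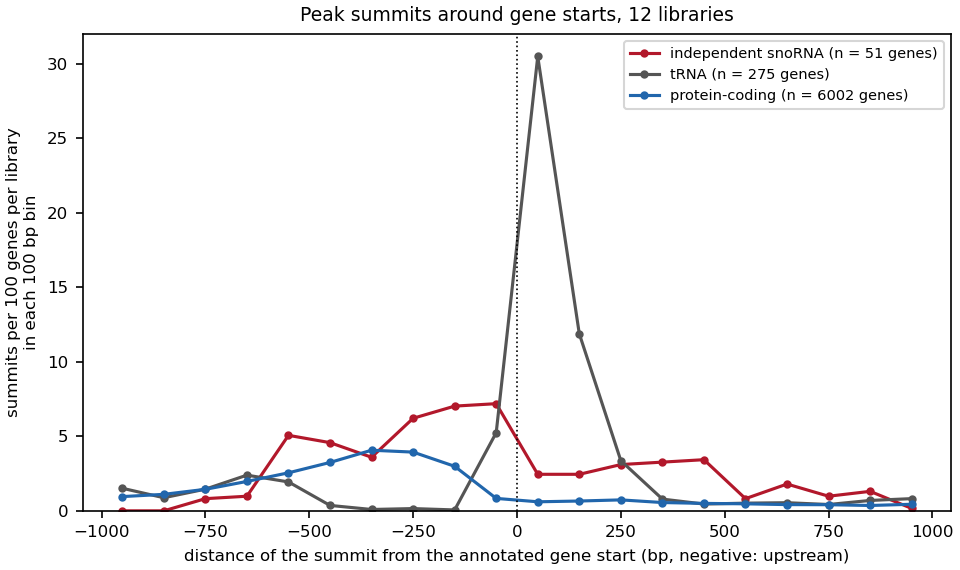
Peak summits per 100 genes and library in bins of 100 bp around the annotated start, for 51 independent snoRNA genes, 275 tRNA genes and 6002 protein-coding genes over 12 libraries. Independent snoRNA genes are highest just before the start (7.19), tRNA genes just after it (30.5) and protein-coding genes between 400 and 300 bp before it (4.07).

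A summit near a snoRNA gene can belong to a neighbour. The open calls rested on 179 distinct peaks, of which 10 were counted for more than 1 member. In 136 of them (76%) a snoRNA start was nearer than the start of any other gene, in 36 a protein-coding start was nearer, in 6 a tRNA start was, and in 1 the distances were equal. Among the 23 independent genes with no other gene start within 500 bp, 11 were open in at least 1 library and 3 in 6 or more, and the mean was 18.8% per library. Among the 28 with another start that near, 19 were open in at least 1 library and the mean was 30.4%. The 15 independent genes with at least 600 bp of free sequence upstream averaged 35.0% per library, the 23 with at least 300 but under 600 bp 22.1%, and the 13 with less 19.2%. The 30 independent genes that were open at least once and the 21 that were not had median upstream gaps of 418.5 bp and 458 bp. Their median lengths were 189.5 bp and 136 bp, and 17 of the 30 and 10 of the 21 had a divergent upstream neighbour.

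The peaks at snoRNA genes were low on the scale of their libraries. Their median fold enrichment was 3.17, with a range of 2.18 to 6.54, against a median of 3.53 for all nuclear peaks. The median -log10 q was 4.27, against 5.77 for all nuclear peaks. Of the 179 gene and library pairs, 118 (65.9%) were below the median of their library's peaks and 12 were at percentile 90 or above. SNR52 accounted for 9 of these 12.

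The snoRNAs that act in precursor cutting were SNR17A and SNR17B (U3), SNR128 (U14), SNR30 and SNR10. The U3 genes are near-identical copies. The handling of reads that map to both is not stated in these sources, so values inside these 2 genes are uncertain. SNR17A (chromosome XV, 780107 to 780596) was open in 8 libraries, 4 YAC and 4 integrated, but 9 of its 10 peaks lay nearer to another gene start, mostly that of DFR1, the dihydrofolate reductase gene downstream. SNR17B (chromosome XVI, 281056 to 281517) was open in 3 YAC libraries and in no integrated library. Its highest summits there were 192, 191 and 192 bp upstream of the start, in synHPRT1R YAC replicates 2 and 3 and synHPRT1 YAC replicate 1, at fold enrichments of 4.54, 3.42 and 5.78. A further summit in synHPRT1R YAC replicate 3 lay 283 bp inside the gene, at 2.94. The 200 bp limit set that contrast: within 500 bp SNR17B was open in all 12 libraries, with nearest summits at 348 bp upstream in synHPRT1R YAC replicate 1 and at 253 to 310 bp upstream in the other 8 libraries. SNR17A was likewise open in all 12 libraries within 500 bp. In all, 7 members were open in every library at that width, the others being SNR52, SNR40, SNR48, SNR81 and SNR45, an acetylation guide. The share of all nuclear genes open in every library at that width was not taken, so this count describes the members alone.

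SNR30 (chromosome XII, 198784 to 199389), an essential H/ACA snoRNA, was open in 0 of 6 synHPRT1R libraries and in 5 of 6 synHPRT1 libraries. The 5 summits were scattered, at 154 and 189 bp upstream of the start, 171 and 487 bp into the gene and, past its end, 759 bp from the start, with fold enrichments of 2.37 to 3.22. No position recurred. In 5 of the 6 synHPRT1R libraries the nearest summit lay 504 to 558 bp upstream, and in synHPRT1 integrated replicate 3 it lay 526 bp upstream. With peaks of at least 3-fold enrichment SNR30 was open in 0 synHPRT1R and 2 synHPRT1 libraries. AAT2, an aspartate aminotransferase gene, starts 699 bp away on the divergent side. SNR10 (chromosome VII, 345986 to 346230), an H/ACA snoRNA, was open in 4 of 6 synHPRT1R libraries and in 0 of 6 synHPRT1 libraries, with fold enrichments of 2.64 and 3.10 on YACs and 3.52 and 2.80 when integrated. All 4 of its summits lay nearer to the start of YGL088W, an overlapping annotated frame, than to that of SNR10. Within 500 bp SNR10 was open in 4 synHPRT1R and 3 synHPRT1 libraries, so that contrast too rested on the 200 bp limit. SNR128 was open in 3 YAC libraries and no integrated library, at fold enrichments of 2.56, 2.96 and 2.27.

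The clusters ranged from 0 to 8 open libraries. SNR190-SNR128 (chromosome X, 139566 to 139950), which carries U14, was open in 4 libraries, 3 YAC and 1 integrated. The 3-gene cluster SNR41-SNR70-SNR51 (chromosome XVI, 718700 to 719242) was open in 1 YAC library, and SNR57-SNR55-SNR61 (chromosome XII, 794486 to 795024) in none. Within 500 bp SNR57, the first gene of the latter, was open in 1 YAC and 3 integrated libraries, with summits 288 to 393 bp upstream. SNR67-SNR53 (chromosome V, 61352 to 61789) was open in 8 libraries, 4 YAC and 4 integrated, with every summit 434 to 576 bp downstream of the first start. None of these 8 calls was therefore at the start of the shared precursor. Beyond the 200 bp limit, summits lay 371 bp upstream of SNR67 in synHPRT1R YAC replicate 2 and 410 bp upstream in synHPRT1R integrated replicate 3.

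The largest cluster holds 7 methylation guides, SNR78, SNR77, SNR76, SNR75, SNR74, SNR73 and SNR72 (chromosome XIII, 297278 to 298651). It was open in all 6 YAC libraries and in no integrated library. None of the 6 summits lay upstream of the first gene: they fell 1052 to 1497 bp downstream of its start, with a median of 1421 bp, at the far end of the cluster. Beyond the 200 bp limit, summits lay 340, 335 and 336 bp upstream of SNR78. They came from synHPRT1R YAC replicate 1, synHPRT1 YAC replicate 1 and synHPRT1 integrated replicate 3. Within 500 bp SNR78 was open in 2 YAC and 1 integrated libraries, and SNR72 in 6 and 0. SNR72, the last gene, was open in 5 YAC libraries, at fold enrichments of 3.02, 2.93 and 2.94 in synHPRT1R YAC replicates 1, 2 and 3 and of 2.67 and 4.10 in synHPRT1 YAC replicates 1 and 3. In synHPRT1 YAC replicate 2 the summit fell instead by SNR73 and SNR74. In integrated libraries the nearest summit to SNR72 was at least 1612 bp from its start. All 5 SNR72 summits lay 35 to 124 bp past its 3′ end, in the gap before BUD22, a gene of ribosome biogenesis on the same strand. They were 93 to 182 bp upstream of the BUD22 start, which was the nearer start for 1 of the 5. Whether these peaks belong to SNR72 or to BUD22 was not tested. With 913 peaks taken from every list, an alternative chosen after seeing the data, SNR72 was open in 4 more YAC than integrated libraries, against 5 with all peaks. With peaks of at least 3-fold enrichment it was open in 2 more, and with a -log10 q of at least 10 the difference was 0.

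The 8 intronic genes had no summit within 200 bp in any library, and the nearest lay between 385 bp (SNR18) and 14521 bp (SNR44) away. Their hosts have their own promoters, taken as 500 bp upstream to 100 bp downstream of the host's start. The promoter of EFB1, a translation elongation factor gene that hosts SNR18, held a summit in all 12 libraries. Those of RPL7A (host of SNR39), RPL7B (SNR59), ASC1 (SNR24) and TEF4 (SNR38) held one in 4, 3, 2 and 1 libraries. Those of RPS22B (SNR44), IMD4 (SNR54) and NOG2 (SNR191) held none.

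In all, 37 members (48.7%) were open in no library, where 69.3% of all nuclear genes were. They were 21 independent, 8 clustered and 8 intronic genes. For 14 of them a summit lay within 500 bp in at least 1 library, and for 14 there was none within 1000 bp. The nearest summit was at a median of 652 bp. Just outside the limit were SNR62 and SNR56, box C/D genes with summits at 214 and 215 bp, and SNR56 was open in 9 libraries at 500 bp. Just inside it were SNR17A, with a summit 199 bp past its end in synHPRT1 integrated replicate 1, and SNR40, with one at 198 bp in synHPRT1R YAC replicate 1. Of the independent genes never open, SNR71 had the most remote summit, at 10006 bp.

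YAC libraries had more snoRNA genes open than integrated libraries, 21.3% ± 3.05 against 18% ± 2.30 (SD, n = 6 each), in ranges of 13 to 19 and 11 to 16 genes that overlapped. All nuclear genes ran the other way, at 10.1% ± 0.354 in YAC libraries and 12.3% ± 1.75 in integrated libraries. With 913 peaks from every list, YAC minus integrated was 5.04 percentage points for snoRNA genes, against 3.29 with all peaks, and -0.0207 for all nuclear genes. The snoRNA difference was 0.439 at a window of 100 bp, 0.219 with peaks of at least 3-fold enrichment and -0.439 with a -log10 q of at least 10, so it depended on the window and on the peaks counted. Independent snoRNA genes had the same mean in both formats, 25.2% ± 6.00 in YAC libraries and 25.2% ± 4.0 in integrated libraries. Clustered genes averaged 19.6% ± 8.86 in YAC libraries (1 to 5 genes) and 4.90% ± 2.40 in integrated libraries (0 or 1). Single peaks counted for 2 clustered genes, such as SNR128 and SNR190, all came from YAC libraries, which raised the YAC share. As clusters, SNR78 to SNR72 was open in 6 YAC and 0 integrated libraries and SNR190-SNR128 in 3 and 1. SNR67-SNR53 was open in 4 and 4, SNR41-SNR70-SNR51 in 1 and 0, and SNR57-SNR55-SNR61 in 0 and 0. Most peaks behind the clustered calls had a fold enrichment under 3, and with peaks of at least 3-fold enrichment alone the clustered difference was 2.94 points, against 14.7 points with all peaks.

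Per gene, openness was tested with Fisher's exact test, two-sided, over the 1840 nuclear genes open in 1 to 11 libraries, 38 of them snoRNA genes, with Benjamini-Hochberg adjustment. Between YAC and integrated libraries 0 genes passed an adjusted p of 0.05, a background of 0%. At an unadjusted p under 0.05 there were 6 genes open more often in YAC libraries (0.326%), 1 of them a snoRNA gene, and 6 open more often in integrated libraries (0.326%), with 0 snoRNA genes. An exact permutation test within constructs also called 0 genes after adjustment. The snoRNA gene was SNR72, open in 5 of 6 YAC and 0 of 6 integrated libraries (Fisher's exact test, two-sided, p = 0.0152, adjusted p = 1). At 500 bp the same test gave 21 genes with an unadjusted p under 0.05, 3 of them snoRNA genes. With the peak body it gave 20, 1 of them a snoRNA gene. Within 500 bp SNR72 and SNR73 were each open in 6 YAC and 0 integrated libraries, and SNR74 of the same cluster in 5 and 0. No snoRNA gene had an unadjusted p under 0.05 at 100 bp, with at least 3-fold enrichment or with 913 peaks per list. None did with a -log10 q of at least 10 or with the replicate block, but neither setting could have called SNR72. At that q, 20 of 179 gene and library pairs remained, none of them of SNR72. The block needs a difference in all 6 pairs of same-numbered libraries, and SNR72 differed by 5. With 6 libraries on each side the smallest p is 0.00216, so 80 genes would have to be open in every library of one format and none of the other for any to be called.

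By size alone, 3 members were open in at least 3 more YAC libraries, where 2.23% of genes tested were: SNR72, SNR128 and SNR17B. In the other direction, 2 members were open in at least 3 more integrated libraries, where 7.55% of genes tested were: SNR4 and SNR64. SNR4 (chromosome V, 424698 to 424883), an acetylation guide of the C/D kind, was open in 1 YAC and 4 integrated libraries. Its fold enrichments were 2.37 in synHPRT1 YAC replicate 1, against 2.34, 3.68, 3.57 and 2.49 in the integrated libraries. SNR64 (chromosome XI, 38811 to 38911), a methylation guide, was open in 2 YAC and 5 integrated libraries, and within 500 bp in 5 and 6. Fisher's exact test gave an unadjusted p of 0.242 for each of these and 0.182 for SNR128 and SNR17B, with an adjusted p of 1 for all 4. Over the 38 members tested, 21 were open in more YAC libraries, 6 in equal numbers and 11 in more integrated libraries, with a median difference of 1 library. Over all 1840 genes the counts were 535, 293 and 1012, with a median of -1.

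**Figure D5:**
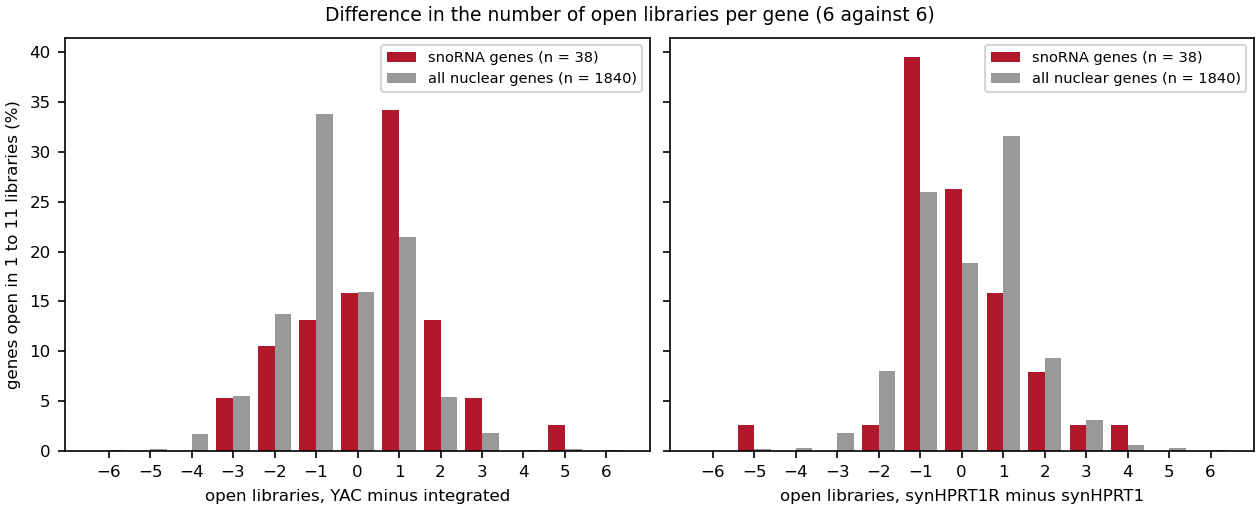
Difference in the number of open libraries per gene, as the percentage of 38 snoRNA genes (red) and of 1840 nuclear genes (grey) open in 1 to 11 libraries; left, YAC minus integrated; right, synHPRT1R minus synHPRT1, with 6 libraries on each side. SNR72 stands alone among members at 5 on the left and SNR30 at -5 on the right.

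Between constructs, 19.3% ± 2.15 of snoRNA genes were open in synHPRT1R libraries and 20.0% ± 4.03 in synHPRT1 libraries (SD, n = 6 each), a gap well within the spread. For all nuclear genes the shares were 11.5% ± 1.81 and 10.8% ± 1.61. Fisher's exact test called 0 genes at an adjusted p of 0.05, a background of 0%, and the exact permutation test within formats called 0. At an unadjusted p under 0.05 there were 7 genes open more often in synHPRT1R libraries (0.38%), with 0 snoRNA genes, and 4 open more often in synHPRT1 libraries (0.217%), 1 of them a snoRNA gene. That gene was SNR30 (Fisher's exact test, two-sided, p = 0.0152, adjusted p = 1), 0 of 6 synHPRT1R libraries against 5 of 6 synHPRT1 libraries.

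By size, 2 members were open in at least 3 more synHPRT1R libraries, where 4.02% of genes tested were. SNR10 was open in 4 against 0 libraries (Fisher's exact test, unadjusted p = 0.0606, adjusted p = 1). SNR85 (chromosome XIII, 67768 to 67938), a pseudouridylation guide, was open in 5 against 2 libraries (Fisher's exact test, unadjusted p = 0.242, adjusted p = 1). SNR85 had fold enrichments of 3.92, 2.61, 2.49, 3.01 and 2.18 in the synHPRT1R libraries and of 2.81 and 3.66 in the synHPRT1 libraries, which overlapped. In the other direction SNR30 was the 1 member open in at least 3 more synHPRT1 libraries, where 2.28% of genes tested were. Of the 38 members tested, 11 were open in more synHPRT1R libraries, 10 in equal numbers and 17 in more synHPRT1 libraries, with a median of 0. Over all genes the counts were 826, 347 and 667, also with a median of 0.

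The genes for the proteins that bind, assemble, trim and transcribe snoRNAs were examined as a list of 30. They averaged 10.3% ± 5.40 open per library (SD, n = 12), less than 1 SD from the 11.2% of all nuclear genes. Of the 30, 21 were open in no library, 9 in 1 to 11 and 0 in all 12, and 0 were called in either comparison by Fisher's exact test after adjustment. None of the 4 core proteins of the C/D particle (NOP1, NOP56, NOP58 and SNU13) was open in any library. Of the 4 core H/ACA proteins only NHP2 was, in 7 libraries. Among assembly factors BCD1, which acts on C/D particles, was open in 7 libraries and NAF1, which acts on H/ACA particles, in 5. NRD1, a termination factor of short polymerase II transcripts, was open in 3 YAC and 0 integrated libraries, and by its promoter window in 5 YAC and 6 integrated libraries. Among the transcription factors REB1 was open in 8 libraries and TBF1 in 0. Of the 9, 4 were open in more YAC libraries and 4 in more integrated libraries.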

How the data were processed

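Processed peak lists of 12 libraries were used, 1 per library, with no list pooled over replicates. Per the submitters' processing notes, the authors used MACS2 2.1.0, Bowtie2 2.2.9, deepTools 3.5.0, bcl2fastq 2.20 and SAMtools 1.9 on build sacCer3. Options, shifts of read ends and the treatment of duplicates and multi-mapping reads are not stated in these sources. Each deposited peak carried a fold enrichment at the summit (a ratio to the local background), a -log10 p and a -log10 q, and a summit offset from the peak start, all as the authors deposited them. Per the labels' protocols, spheroplasts were tagmented for 30 min at 37 °C and amplified with 11 PCR cycles. Read depth is unknown from peak lists, so no counting interval is given.

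Gene spans came from the RefSeq table of R64, the sequence of sacCer3, with strand read from systematic names. Summits were placed 1-based at the peak start plus the offset. A member's value in a library was its highest peak with a summit within 200 bp, and its percentile was its rank by fold enrichment among the nuclear peaks of that library. Each gene's openness was compared by Fisher's exact test (SciPy 1.17.1, pandas 2.3.3, Python 3.11.15) and Benjamini-Hochberg adjustment over all nuclear genes open in 1 to 11 libraries, constructs or formats pooled. The test was checked on simulated data. Named were genes open in all 12 libraries, those differing by 3 or more libraries, clustered and intronic genes, SNR17A, SNR17B, SNR30, SNR10, SNR128, SNR190 and SNR52, and up to 8 genes of highest mean percentile among those open in at least 10 libraries. Alternatives were windows of 100 and 500 bp, fold enrichment of at least 3, -log10 q of at least 10, the peak body, cluster gaps of 250 and 1000 bp, other tests and filters, and leaving out each library. The members and lists were chosen with earlier results of these data known. Promoter motifs were not analysed here.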

Additional observations from a re-analysis of the deposited data

Results flagged for a closer look

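The number of clustered snoRNA genes open (of 17) set 2 libraries apart from the others of their kind. Among the 6 integrated libraries, synHPRT1 integrated replicate 3 had 0 open clustered genes and the other 5 had 1 each. Among the 6 synHPRT1R libraries, synHPRT1R YAC replicate 1 had 4, against 2 in synHPRT1R YAC replicate 2 and 1 in each of the rest. In all, 16 such checks were made. The usual rate at which chance sets a library apart, about 1 in 20, does not hold for tied counts this small: with 5 libraries at 1, any other count in the sixth would be set apart. The 4 genes of synHPRT1R YAC replicate 1 were SNR53, SNR72, SNR190 and SNR128, and 1 peak was counted for the last pair.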

How the results depend on the processing

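The number of genes called after adjustment was 0 in both comparisons under all alternatives run. The replicate numbers did not pair libraries. Same-numbered libraries correlated at -0.0425 to 0.0340 between formats and at -0.0560 to 0.0461 between constructs, with 0 of 6 pairs over 0.1 in each. The replicate block called 0 genes in both. With 6 pairs its exact sign-flip test gives no p under 0.03125, which leaves little room for a call after adjustment. Of the other results, 71 stayed close to their value with no library left out, 30 moved and 1 reversed. Close meant within 1 SD between libraries or, for counts, within a factor of 1.5. The cause was not tested. At a window of 100 bp, 11.4% of snoRNA genes and 14.1% of independent ones were open, and the YAC minus integrated difference was 0.439 percentage points, where it was 3.29 at 200 bp. At 500 bp the shares were 33.9%, 40.8% (independent), 28.4% (clustered) and 1.04% (intronic), 7 members were open in every library and 23 in none, and the difference was 25.5 points for clustered and -3.75 for all nuclear genes. With fold enrichment of at least 3 the shares were 12.4% and 17.3% (independent), and the differences 0.219 and 2.94 (clustered). With -log10 q of at least 10 they were 2.19%, 3.27% (independent) and 0% (clustered), with 0 members open in every library and 68 in none, and the difference was -0.439, a reversal, and 0 for clustered genes. With the peak body they were 29.7% and 38.4% (independent), with 6 members in every library and an all-gene difference of -3.70. For the counts of members open in every library or in none, the shares of all nuclear genes were not taken under these alternatives. With 913 peaks per library, chosen after seeing the data, they were 14.8% and 19.8% (independent), with an all-gene difference of -0.0207. For independent genes with no other start within 500 bp, 100% of peaks were nearest the snoRNA start, against a mean over libraries of 75.5% for all members. The choice of genes largely fixes that value. Their summits lie within 200 bp of the gene and other starts over 500 bp from it. snoRNP protein genes stood at 18.3% by the promoter window (500 bp before the start to 100 bp after it), against 15.6% of protein-coding and 16.6% of all nuclear genes. Among 342 single-gene values 274 counted as kept, 64 moved and 4 reversed. A difference counted as kept when its sign held or it stayed at 0, whatever its size. A number of open libraries counted as kept within 1 library. At 100 bp the reversals were SNR30 at -2 for YAC minus integrated and SNR4 and SNR64 at 1 for synHPRT1R minus synHPRT1. At -log10 q of at least 10 it was SNR17B at -1 for synHPRT1R minus synHPRT1. Without 1 library at a time, 19.1 to 20.1% of snoRNA genes were open, with 1 to 2 genes in every library (2 without synHPRT1R YAC replicate 2 or synHPRT1R integrated replicate 3) and 37 to 40 in none, 24.6 to 25.8% of independent and 10.7 to 13.4% of clustered genes. The difference between formats was then 2.54 to 4.12 points for snoRNA genes, -1.24 to 1.5 for independent, 12.7 to 17.5 for clustered and -2.75 to -1.87 for all genes, and between constructs -1.75 to 0.351 for snoRNA genes and 0.222 to 1.31 for all genes. Peak lists without read totals limit depth: an uncalled gene may lie below the caller's threshold.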
